A study of Mus musculus with 6 samples.

Results

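The members are mouse genes named Zfp followed by a number that carried at least 1 AGO2 target peak in embryonic stem cells. Of 366 protein-coding Zfp genes in the RefSeq annotation of GRCm38, 38 were chosen by having a listed peak whose midpoint lay in their span. Zfp42 was left out by the rule. The members held 64 of the 3292 listed peaks, 1.94% of the list, and each of these 64 lay in the span of 1 protein-coding gene. The peaks came from cells of the E14 embryonic stem cell line, grown with serum and LIF, that carry Spy3-Ago2, an Argonaute2 with a peptide tag. Tagged AGO2 was pulled down with its bound RNA through SpyCatcher3, the protein partner of the tag. The 6 libraries were 2 miRNA, 2 target and 2 input libraries, all of this 1 genotype and culture, with no untagged or treated group. The peaks form 1 list for the whole series, so no peak has a value per replicate and no spread between replicates can be given. The sources used here do not state whether the input libraries entered the peak calling, so a peak is a listed region of AGO2-bound RNA and not a proven site.

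Most Zfp genes encode proteins with C2H2 zinc fingers, small folds held by a zinc ion that read DNA and, in some proteins, RNA. Many of them also carry a KRAB domain, through which the scaffold protein TRIM28 is recruited to silence retrotransposons. The fingers of KRAB zinc finger proteins are usually encoded in tandem in the last coding exon, and many of their genes lie in clusters of recent duplicates with similar sequence. No source used here states how reads matching several such copies were placed, so the division of peaks among close paralogs is uncertain. The name Zfp also covers proteins of other kinds, such as the CCCH protein ZFP36.

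The share of Zfp genes with a peak was near that of other genes. It was 38 of 366 (10.4%, exact Clopper-Pearson 95% interval 7.45 to 13.97), against 1817 of 21900 protein-coding genes (8.30%). Since a peak was the condition for choosing the members, this share is given as a description. A pair of peaks or more lay in 12 Zfp genes (3.28% of the 366), against 2.87% of all protein-coding genes. Intervals here and below treat genes or peaks as independent and cover counting error only, although peaks of 1 gene share their transcript. A gene without a listed peak may lack one because its RNA was scarce, since transcript levels were not analysed here.

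Other families of C2H2 genes, taken by symbol, had shares on both sides of this one. Of 41 Zbtb genes, which join fingers to a BTB domain, 4 had a peak (9.76%). The 27 Zscan and Zkscan genes, whose proteins join a SCAN domain to fingers, had 0 peaks, which allows a share of up to 11.1% when the limit is taken as 3 genes of the 27, not as an exact interval. Of 29 genes with a symbol of Klf or Sp followed by a digit, 9 had a peak (31.0%) and 20 peaks in all. The Klf and Sp families encode activators and repressors with short finger domains. Symbols alone may take in genes outside these families, so the share is that of the symbols. Among 8 Zic and Gli genes, encoding developmental regulators, 4 had a peak. No test of the differences between families was made.

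The share with a peak was higher among Zfp genes without another Zfp gene close by than among those with one. Only genes named Zfp and a number counted as neighbours. A gene without such a neighbour may thus still lie near zinc finger genes of other names. Of the 154 Zfp genes with no other Zfp gene within 100000 nt, 25 had a peak (16.2%, exact interval 10.8 to 23.0). Of the 212 with a Zfp neighbour at that distance or closer, 13 had one (6.13%, exact interval 3.31 to 10.3). Members without a close Zfp neighbour had a median span of 29185 nt and those with one 22792 nt. These medians cover the 25 and 13 genes with a peak, so they do not show whether all 154 and 212 genes differed in span. The difference was not tested, and the distance was chosen after the data were seen. Chromosome 7 held the most members, 9 of its 90 Zfp genes (10%), a share near that of all Zfp genes. Members numbered 4 of 41 on chromosome 17 (9.76%), 4 of 24 on chromosome 2 (16.7%) and 4 of 27 on chromosome 4 (14.8%). The highest shares, 2 of 4 on chromosome 1 and 1 of 2 on chromosome 19, rest on few genes. Of the 32 Zfp genes on chromosome 13, 1 had a peak, and the 5 on chromosome 10, 5 on chromosome 12, 10 on chromosome 15 and 7 on chromosome X had 0. One clustered stretch of 185821 nt on chromosome 7 (29983955 to 30169775) held 7 Zfp genes, of which Zfp568, Zfp382 and Zfp146 had a peak, 7 peaks in all. Its bounds are the outer edges of Zfp568 and Zfp146, both members, so this count is a description only. Of all Zfp genes with a close Zfp neighbour, 6.13% had a peak.

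Zfp genes with long spans had the highest share with a peak. Members had a median span of 26092.5 nt and the 328 Zfp genes with 0 peaks one of 17283 nt. The other nuclear protein-coding genes with a peak, 1779 in number, had a median of 35899 nt. Of 38 Zfp genes with spans of 50000 nt or more, 11 had a peak (28.9%, exact interval 15.4 to 45.9), against 14.5% of the other protein-coding genes of that length. Between 10000 and 20000 nt, the class with the most Zfp genes, the shares were 7 of 146 (4.79%, interval 1.95 to 9.63) and 6.57%. From 20000 to 50000 nt 14 of 127 Zfp genes and 10.4% of the others had one, and under 10000 nt the shares were 10.9% (6 of 55) and 3.86%. The order of Zfp and other genes therefore differed between classes, and the part of span length in the shares was not tested.

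**Figure D1:**
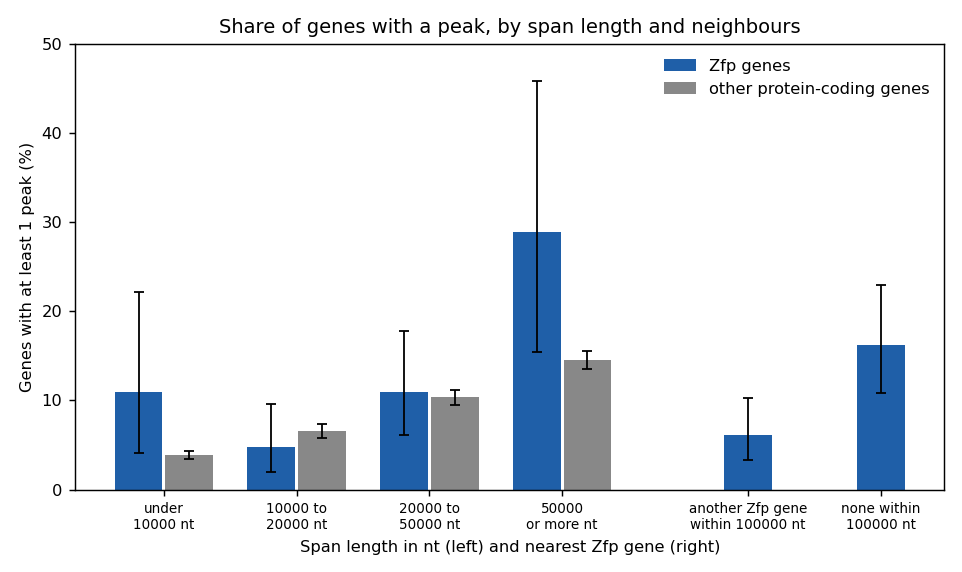
Percent of genes with at least 1 peak by span length in nt (left, Zfp genes in blue, other protein-coding genes in grey) and by distance to the nearest other Zfp gene (right). Bars start at 0 and error bars are exact 95% binomial intervals. The Zfp share was 28.9% in the longest class and 4.79% between 10000 and 20000 nt, and 16.2% without and 6.13% with a Zfp neighbour.

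The number of peaks per member was near that of other genes with a peak. A single peak lay in 26 members, and 12 of the 38 (31.6%, exact interval 17.5 to 48.7) had at least 2, against 34.6% of all protein-coding genes with a peak. At least 3 peaks lay in 7 members (18.4%), against 17.2%. The mean was 1.68 peaks per member and 1.77 per other gene. Zfp106, Zfp266 and Zfp568 held 16 of the 64 peaks.

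Zfp106, which encodes an RNA-binding protein needed for motor neurons and muscle, had the most peaks, with 7 on the minus strand of chromosome 2 (gene span 120506820 to 120563864). Read in the 5′ to 3′ sense of the peak strand, they ran from 50.8% to 83.8% of the span, and none was closer than 9229.5 nt to the downstream end. A run of 3 of them, with midpoints 250.5 and 257 nt apart, lay at chr2:120534322-120534473, chr2:120534613-120534683 and chr2:120534867-120534943. Zfp106 also held the widest member peak, of 181 nt at chr2:120531668-120531848. It had several peaks and none within 2000 nt of its downstream end, as had Zfp532, Zfp462 and Zfp710.

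Zfp266 had 5 peaks on the minus strand of chromosome 9 (span 20495068 to 20521419), all between 1981.5 and 3820.5 nt from the downstream end. From the first to the last midpoint they covered a stretch of 1839 nt, 6.98% of the 26352 nt span, and their widths summed to 324 nt. The 3 nearest the end, at chr9:20497037-20497062, chr9:20497090-20497133 and chr9:20497170-20497193, were 26, 44 and 24 nt wide with gaps of 27 and 36 nt, while the remaining pair were 90 and 140 nt wide. Its neighbour Zfp426, 2322 nt away, had 0 peaks.

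Zfp568, a KRAB zinc finger gene whose protein represses a placental transcript of Igf2, had 4 peaks on the plus strand of chromosome 7 (span 29983955 to 30028282). They lay 2595, 2195, 1656.5 and 321.5 nt from the downstream end and were 99, 105, 68 and 132 nt wide. All 4 lay at 94.1% of the span or beyond. Zfp990 on chromosome 4 (span 145510759 to 145538251), whose nearest other Zfp gene was Zfp980 at 132446 nt, had a like arrangement, with 3 peaks at 1496, 1360.5 and 61 nt from the end. The last of these was the member peak closest to an end of its gene.

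Zfp217, the mouse counterpart of an amplified human cancer gene, had 3 peaks on chromosome 2 (span 170108643 to 170151677). One lay 346 nt from the downstream end and the others at 6010.5 and 6141 nt, 34 nt apart edge to edge. Zfp292, which encodes a large finger protein, had 3 peaks on chromosome 4 (span 34803110 to 34882983), at 1252.5, 1866.5 and 7769.5 nt. In both genes a peak or pair near the end was thus joined by another over 5000 nt upstream. Zfp532, a gene for a chromatin-bound finger protein, differed, since its 3 peaks lay within 1079.5 nt of each other at 39.6% to 40.6% of a 109214 nt span on chromosome 18 (65580230 to 65689443).

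A pair of peaks lay in 5 further members. Those of Zfp146, whose protein consists almost wholly of fingers, were 304.5 and 674.5 nt from the end. Those of Zfp871 were 393.5 and 4126.5 nt away, and those of Zfp710 6214.5 and 10258.5 nt. Zfp644, which encodes a partner of the histone methyltransferases G9a and GLP, had its pair at 1634 and 20790 nt. Zfp462, a gene for a regulator of heterochromatin in stem cells, had the most separated pair, 59152.5 nt apart, and the most upstream member peak, at 6.76% of its 139073 nt span.

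**Figure D2:**
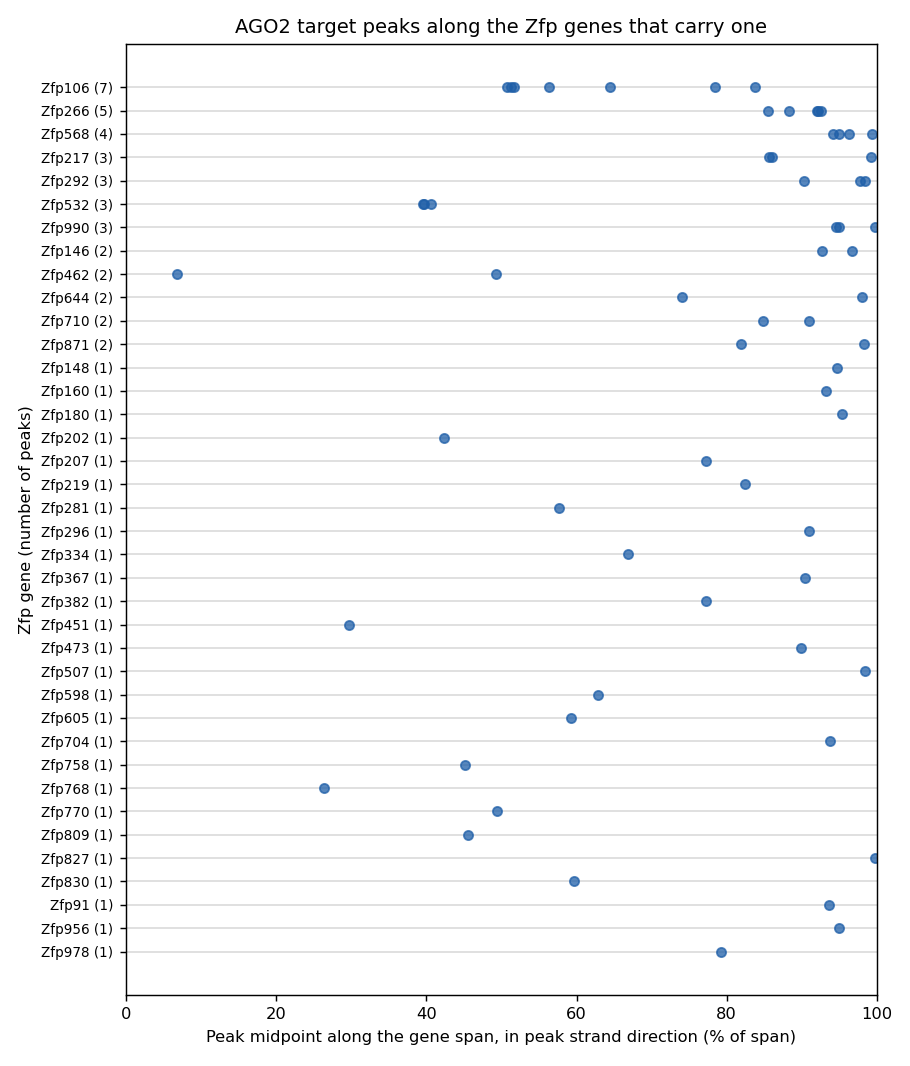
Position of each of the 64 peaks along its Zfp gene, as percent of the gene span read 5′ to 3′ on the peak strand, with 1 row per gene and the number of peaks in brackets. Of the genes with 2 or more peaks, Zfp266, Zfp568, Zfp217, Zfp292, Zfp990 and Zfp146 had all of them beyond 85% of the span, Zfp532 near 40% and Zfp106 between 50.8% and 83.8%.

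Member peaks lay mostly toward the downstream end, as did the peaks of other genes. Their median position was 85.9% of the span (order-statistic 95% interval 77.2 to 92.2), against 83.0% for the 3153 placements of peaks in other nuclear protein-coding genes, where a peak in overlapping genes counts once for each. The last 10% of the span held 29 of the 64 (45.3%), against 40.9%, and the first 10% held 1, in Zfp462, against 4.28%. In genes with 2 or more peaks the median was 89.3% for members and 82.4% for others. For genes with 1 peak the order was the opposite, with 78.2% over 26 members and 83.6% over 1162 other genes. None of these differences was tested.

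Counted in nucleotides, the share of member peaks was lower than elsewhere within 1000 nt of the gene end and higher in the next 1000 nt. Within 1000 nt of the downstream end lay 10 of 64 (15.6%, exact interval 7.76 to 26.9), against 23.2% of those in other genes. From 1001 to 2000 nt lay 14 (21.9%, interval 12.5 to 34.0), against 12.4%. From 2001 to 5000 nt there were 13 (20.3%) against 17.9%, and over 20000 nt there were 13 (20.3%) against 23.9%. Up to 2000 nt in all, the sum of the nearest bands, lay 37.5% of member peaks and 35.6% of the others. The intervals are wide, the first includes the value of the other genes, the bands were chosen after the data were seen, and the difference was not tested. Whether a peak lay in coding sequence or in the untranslated part of the last exon was not analysed here. The median distance was 3927 nt for members and 4064.5 nt for others. Without the 7 peaks of Zfp106 the member median was 2595 nt.

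**Figure D3:**
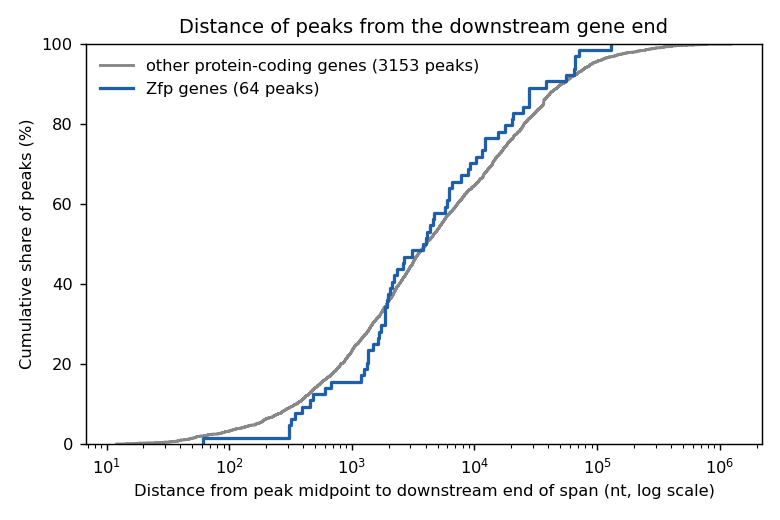
Cumulative share of peaks by distance from the peak midpoint to the downstream end of the gene span (log scale, nt), for 64 peaks of Zfp genes (blue) and 3153 of other protein-coding genes (grey). The blue curve lies below the grey one at 1000 nt (15.6% against 23.2%) and slightly above it at 2000 nt (37.5% against 35.6%).

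Single peaks near the end were found in members of several kinds. Zfp296, a cofactor of pluripotency factors, had its peak 305.5 nt from the end of a span of 3370 nt on chromosome 7 (19577287 to 19580656). Zfp827, whose protein recruits the NuRD complex at telomeres, had one at 455 nt from the end of a 166283 nt span, at a place where the long noncoding RNA gene Gm30271 overlaps it. Zfp507 followed with 478.5 nt and Zfp956 with 600 nt. Zfp180, Zfp830, Zfp160, Zfp473, Zfp768, Zfp91 and Zfp367 had theirs between 1188 and 1928.5 nt. Among these, Zfp473 encodes a protein of histone mRNA processing and Zfp91 a ubiquitin ligase, and the Zfp91 peak also lay in the noncoding gene Gm44505. In Zfp768 and Zfp830 the spans were 2520 and 3278 nt, so that peaks within 2000 nt of the end still lay at 26.3% and 59.6% of the gene.

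Between 2000 and 10000 nt from the end lay the single peaks of Zfp281, Zfp219, Zfp770, Zfp382, Zfp598, Zfp334, Zfp207, Zfp148 and Zfp605. Zfp281, a regulator of the exit from naive pluripotency, had its peak at 57.7% of a span of 5491 nt on chromosome 1, at chr1:136628047-136628090. Zfp598, which marks collided ribosomes, had its peak at 62.9%, and Zfp207, which acts at kinetochores, at 77.2%. Zfp148, the gene of the factor ZBP-89, had a peak at 94.7% of a span of 123129 nt.

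The remaining single peaks, those of Zfp704, Zfp202, Zfp809, Zfp758, Zfp451 and Zfp978, lay between 11456 and 55425.5 nt from the end. Zfp809, a KRAB gene whose protein silences murine leukaemia virus sequences, had a peak of 113 nt at 45.6% of its span, chr9:22238585-22238697. Zfp451, a SUMO ligase gene, had one at 29.7%. The Zfp978 span, 267146 nt long, overlaps that of Zfp991, and its peak lay 2534.5 nt outside Zfp988.

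Strand was known from the promoter table for 32 members with 50 peaks. Of these, 49 lay on the strand of the gene (98%), against 97.2% of 2519 placements in other genes. The exception was Zfp202, on the plus strand of chromosome 9 (40192316 to 40213604), whose peak of 44 nt, chr9:40204574-40204617, was on the minus strand with no other annotated gene at its midpoint. Its position of 42.3% was read on the peak strand, as for every peak here.

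Neighbouring peaks on 1 gene formed 26 pairs in the 12 members with more than 1 peak. Their midpoints lay a median of 994 nt apart (order-statistic 95% interval 370 to 3733), against 1538.8 nt over 1370 pairs in other genes, a value inside that interval. Within 200 nt lay 5 pairs (19.2%) against 20.9%, and over 5000 nt lay 5 pairs (19.2%) against 31.9%. The 5 closest pairs were 1 each in Zfp532, Zfp217 and Zfp990 and 2 in Zfp266, with midpoints 60 to 135.5 nt apart and gaps of 27 to 36 nt between edges. After these 5 came pairs in Zfp106, at 250.5 and 257 nt. Without Zfp106 the median was 854 nt over 20 pairs.

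**Figure D4:**
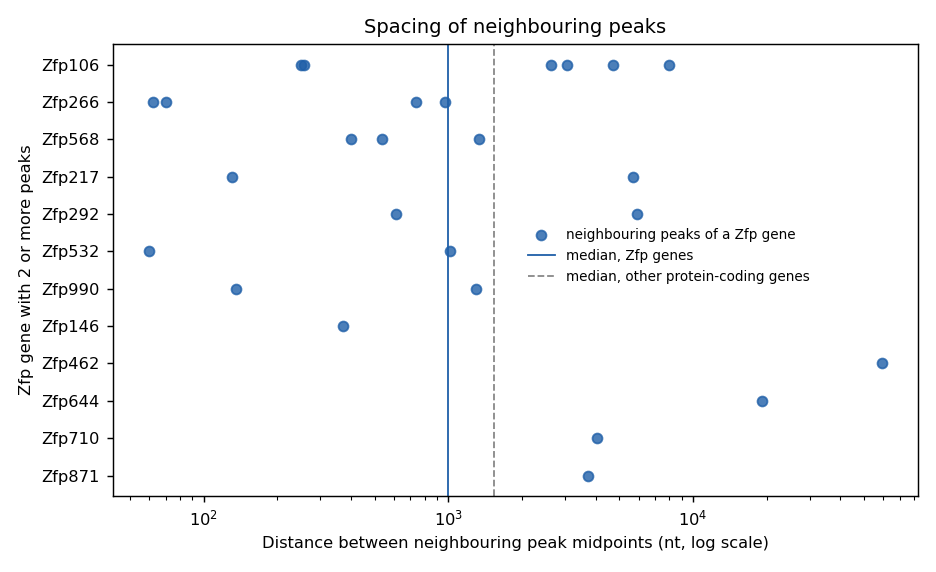
Distance between the midpoints of neighbouring peaks (log scale, nt) in the 12 Zfp genes with at least 2 peaks, 1 point per pair. The blue line is the median of the 26 pairs, 994 nt, and the dashed grey line that of other protein-coding genes, 1538.8 nt. Pairs in Zfp532 and Zfp266 were the closest and the pair of Zfp462 the most distant.

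The names of the peaks carry numbers that rise with position in all 43 classes of chromosome and strand, up to 30438, and the 3292 listed peaks are 10.8% of that. Numbers missing between listed peaks of 1 gene were counted. From the first to the last peak of the 12 members ran 88 numbers, of which 38 were listed (43.2%), against 32.0% of 6217 in other genes with 2 or more peaks. Both ends of each run are listed peaks by definition, which raises these shares, most in short runs. They are therefore not comparable with the 10.8%, and the difference between members and other genes was not tested. Zfp106 lacked the most, with 21 of its 28 numbers unlisted, followed by Zfp568 with 7 of 11. Zfp146, Zfp644 and Zfp871 lacked none, although the pair in Zfp644 was 19156 nt apart. No source used here states what the missing numbers were.

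The median width of member peaks was 67 nt (order-statistic 95% interval 57 to 90) with quartiles of 50.8 and 112 nt, against a median of 59 nt and quartiles of 45 and 84 nt in other genes. A width of at least 100 nt was reached by 18 of 64 (28.1%, exact interval 17.6 to 40.8) and by 17.2% of the others. The median of the others lies within the member interval, while their 17.2% lies just below the interval of the member share. Neither difference was tested. After the Zfp106 peak of 181 nt, the widest were 165 nt in Zfp768, 163 nt in Zfp990, 154 nt in Zfp532 and 153 nt in Zfp217. The narrowest was 17 nt, also in Zfp532, where it lay 27 nt from its neighbour.

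**Figure D5:**
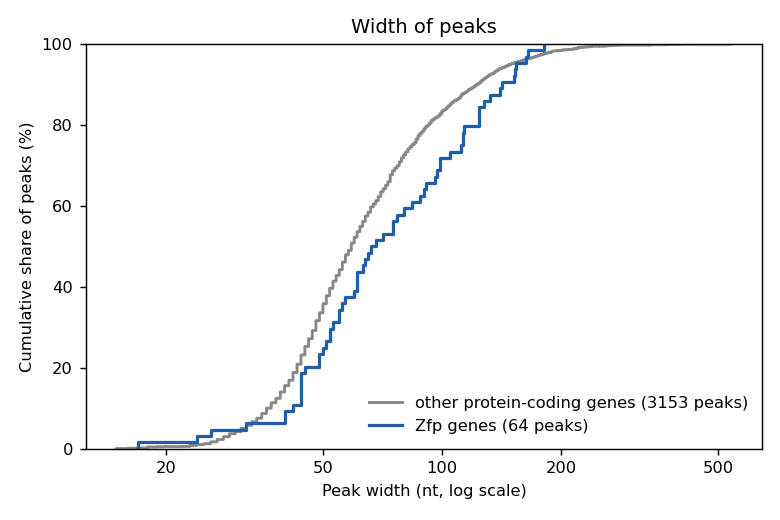
Cumulative share of peaks by width (log scale, nt) for 64 peaks of Zfp genes (blue) and 3153 placements in other protein-coding genes (grey). The blue curve runs to the right of the grey one over most widths, with medians of 67 and 59 nt, and ends at 181 nt.

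Of 27 matched Zfp genes on a list of those studied in mouse stem cells or with known functions, 13 had a peak, 27 peaks in all. This was 48.1%, where all 366 Zfp genes gave 10.4% and all protein-coding genes 8.30%. The list was drawn up with earlier results of these data known, so its share is no independent evidence. Among those with 0 peaks were Zfp57 and Zfp445, which protect imprinted methylation, Zfp143, Zfp131, Zfp638, Zfp706 and Zfp36, the last a gene for a CCCH protein that destabilises mRNA. The nearest peak to Zfp143 lay 6019 nt outside its span, in Ipo7. Of the Zfp genes with 0 peaks, Zfp771 had the closest one outside its span, 2282.5 nt away within Dctpp1. The member peaks nearest to an edge of their gene lay 61, 304.5 and 305.5 nt inside it, in Zfp990, Zfp146 and Zfp296. Zfp990 and Zfp146 also had peaks further inside.

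Proteins of chromatin silencing, among them partners of KRAB zinc finger proteins, were taken as a second list, drawn up in the same way. Of its 23 genes, 8 had a peak (34.8%, where all protein-coding genes gave 8.30%), with 23 peaks in all and a median of 0 per gene. This share, too, is no independent evidence. Trim28 and Setdb1, which encode the scaffold and the histone H3 lysine methyltransferase it recruits, had 0 peaks. Resf1, for a regulator of retroelement silencing, had 7 peaks, Dnmt1, the maintenance DNA methyltransferase gene, had 5, and Chd4, for the NuRD remodeller, had 3. Tasor, a gene of the HUSH complex, had 3 peaks, all 11099.5 to 11796 nt upstream of its end. Smarcad1 had 2 peaks, and Cbx5, Atf7ip and Ehmt2 had 1 each. Peaks within 2000 nt of the downstream end lay in Cbx5, Resf1 and Dnmt1. Of 10 genes listed as markers of embryonic stem cells, 6 had a peak, where 8.30% of all protein-coding genes had one. Fgf4 had 11, Tfcp2l1 3, Klf4 and Esrrb 2 each, and Nanog and Sox2 1 each, while Pou5f1, Dppa3, Utf1 and Sall4 had 0.

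Repeated finger-coding sequence is known to hold seed matches for some miRNAs, the miR-23 and miR-181 families among them, so their share of AGO2-bound miRNA counts is given. Seeds, bases 2 to 8, are in capitals. They show that the 4 miR-181 members, counted together, share the same seed. Sequences are the RefSeq mature miRNAs on GRCm38.p6, and miR-23b-3p is named only, so its seed was not compared with that of miR-23a-3p.
miR-23a-3p: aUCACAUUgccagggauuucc
miR-181c-5p: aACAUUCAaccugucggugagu
miR-181d-5p: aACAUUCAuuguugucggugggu
miR-181a-5p: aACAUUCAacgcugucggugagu
miR-181b-5p: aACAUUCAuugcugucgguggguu

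The miRNA libraries held 12562727 counts in replicate 1 and 22908172 in replicate 2. miR-23a-3p and miR-23b-3p together made up 1.02% and 1.19% of them, a mean of 1.10% ± 0.12 (SD, n = 2). The miR-181 family made up 0.123% and 0.140%, a mean of 0.132% ± 0.012 (SD, n = 2). The miR-23 sum was larger in both libraries, and the difference between the families was not tested. Within the miR-181 family, miR-181c-5p led with 10846 and 22745 counts, ahead of miR-181d-5p with 4434 and 8928. miR-181a-5p had 145 and 226 counts and miR-181b-5p 86 and 185, and each of these has 2 loci in RefSeq where the other pair has 1. No source used here states how counts were shared between loci. Nothing in the labels marks the replicates as separate cultures, so their spread may be technical. Seed matches in the Zfp peaks were not analysed here, so no peak is tied to these miRNAs.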

How the data were processed

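The deposited peaks have positions and a strand on mm10, and a score of 0 throughout, so no stricter threshold could be set by score. The authors deposited raw counts per mature miRNA for both miRNA libraries. Per the submitters' processing notes, STAR 2.5.2a, Bowtie2 2.4.2, cutadapt 2.10, UMI-tools, deepTools 3.1.3 and DESeq2 1.36.0 were used, in roles not stated. No source used here names the peak caller.

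Peaks were assigned by midpoint to RefSeq gene spans of GRCm38.p6, the assembly that UCSC names mm10. Gene strand came from the promoter table where it had one. Positions are counted from 1. With 1 list and no values per library, no test between groups was made. The members and lists were chosen with earlier results of these data known. Named genes were those with at least 2 peaks, the peaks nearest each gene end, the closest pairs, the widest peaks and listed genes; other members, and list genes with 0 peaks, were named with their values in view. The 1 unmatched list gene was left out. Planned counts of fingers per protein were not run, since protein sequences were not used here. Placement was tested on simulated data, where 538 of 538 peaks in 500 genes were recovered. Python 3.11.15, numpy 2.4.6, pandas 2.3.3, scipy 1.17.1 and matplotlib 3.10.9 were used.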

Additional observations from a re-analysis of the deposited data

How the results depend on the processing

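Across 29 alternatives for the 5 peak results, every value stayed within the 95% interval of the reported one. These alternatives placed whole peaks rather than midpoints, kept peaks in exactly 1 protein-coding gene or of at least 40 nt, widened the symbols to all that start with Zfp, matched peak and gene strand, merged peaks under 50 nt apart, measured gaps between edges, weighed genes equally or, added after seeing the data, left out Zfp106. The intervals are wide at 38 genes, 64 peaks and 26 pairs, so this says little about small differences. Keeping peaks in exactly 1 protein-coding gene could not change a value, since each of the 64 lay in 1 such gene. Placing whole peaks also left every value as it was. With the most abundant miRNA left out of the total, the miR-23 family stood at 1.45% and the miR-181 family at 0.173%, since the total is smaller. Leaving out either replicate gave 1.02% to 1.19% for miR-23 and 0.123% to 0.140% for miR-181. No paired analysis was possible because the replicate numbers are shared with target and input libraries that have no values per library here. All shares of genes with a peak also depend on how many peaks were listed.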
